A study of Rattus norvegicus with 12 samples.

Results

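A group of 10 inflammatory chemokine genes was followed rat by rat in the mammary gland. They were the CC chemokines Ccl2, Ccl3, Ccl4, Ccl5, Ccl7 and Ccl11 and the CXC chemokines Cxcl9, Cxcl10, Cxcl11 and Cxcl12. Each was represented by the probe set that carried its symbol alone, and where a gene had several, the probe set was to be chosen by its mean intensity over the 12 arrays, the highest being taken. Each of the 10 genes had 1 such probe set, so that no measured value decided between probe sets, and they were 10 of the 14506 genes with a probe set of their own symbol. All 10 had a mean above the filter on low values and were tested.

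RNA came from whole mammary glands of 12 female Lewis rats that had been ovariectomized (ovx) at about 10 weeks of age, which removed the ovarian source of hormones in every group. Treatment began 14 days later and consisted of 3 doses at 24 hr intervals, with the glands taken 24 hr after the last dose, while the sample labels give 48 h of treatment. The 4 groups of 3 rats received vehicle (DMSO), 17β-estradiol (E2) at 4 μg per kg per day, 3-methylcholanthrene (3-MC) at 15 mg per kg per day, or E2 + 3-MC at these doses. 3-MC is a polycyclic aromatic hydrocarbon that activates the aryl hydrocarbon receptor (AHR). A single Affymetrix rat gene array was used for each rat, so the replicates are separate animals. RNA of the whole gland holds that of its epithelium, fat, stroma and leukocytes together, and fewer cells of a type cannot be told apart from less RNA per cell.

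Chemokines are small secreted proteins that bind G protein-coupled receptors on leukocytes and direct their migration. CC and CXC chemokines are named for the spacing of their first conserved cysteines. Ccl2 and Ccl7 attract monocytes through CCR2, Ccl11 (eotaxin) attracts eosinophils through CCR3, and Ccl3 and Ccl5 attract macrophages and T cells in part through CCR1. Ccl4 is a close relative of Ccl3. Cxcl9, Cxcl10 and Cxcl11 are induced by interferons and attract activated T cells and NK cells through CXCR3. Cxcl12 is made by stromal cells and binds CXCR4 and the scavenging receptor ACKR3. In the mammary gland, macrophages and eosinophils gather around growing ducts, and chemokines are among the signals that bring them there.

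The genes lie in chromosomal clusters. On GRCr8 chromosome 10, Ccl2 is at 67503077 to 67504875, Ccl7 at 67514095 to 67515945 and Ccl11 at 67525975 to 67530576, and Ccl5, Ccl3 and Ccl4 follow between 68820330 and 68965728. On chromosome 14, Cxcl11 is at 15973728 to 15976503, Cxcl10 at 15989066 to 15991263 and Cxcl9 at 16007166 to 16012077. Cxcl12 stands alone on chromosome 4 at 152060781 to 152073628. Promoter windows from RefSeq (GRCr8, 250 bases before to 50 after the gene start) were given for Ccl7, Cxcl9, Cxcl10, Cxcl11 and Cxcl12. The 250 upstream bases of 3 of them are shown because Cxcl10 and Cxcl11 were high in the same rats and Ccl7 was high in a partly different set. All are on the plus strand, at chr14:15988816-15989065 for Cxcl10, chr14:15973478-15973727 for Cxcl11 and chr10:67513845-67514094 for Ccl7, and capitals mark matches to the motifs searched.
Cxcl10: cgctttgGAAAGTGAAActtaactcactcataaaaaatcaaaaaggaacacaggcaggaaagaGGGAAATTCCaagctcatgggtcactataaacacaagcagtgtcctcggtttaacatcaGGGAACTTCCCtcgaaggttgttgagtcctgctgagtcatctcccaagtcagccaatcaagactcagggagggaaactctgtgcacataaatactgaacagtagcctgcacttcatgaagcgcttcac
Cxcl11: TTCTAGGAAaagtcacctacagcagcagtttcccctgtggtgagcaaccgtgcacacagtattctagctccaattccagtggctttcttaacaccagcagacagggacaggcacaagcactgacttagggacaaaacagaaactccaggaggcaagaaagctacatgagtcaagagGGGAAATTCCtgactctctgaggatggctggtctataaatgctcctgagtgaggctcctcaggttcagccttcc
Ccl7: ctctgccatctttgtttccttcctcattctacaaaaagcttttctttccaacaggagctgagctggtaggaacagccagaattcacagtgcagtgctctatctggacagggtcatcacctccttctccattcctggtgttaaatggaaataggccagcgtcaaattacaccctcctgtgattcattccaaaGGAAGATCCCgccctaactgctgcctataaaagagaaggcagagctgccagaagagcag
Both strands were searched for 5 motifs, namely the NF-κB site, the core of the interferon-stimulated response element, the gamma-activated site TTCNNNGAA, the AHR/ARNT core GCGTG and the palindromic estrogen response element, where N is any base. In Cxcl10 the capitals are an interferon-stimulated element core on the minus strand at -243 and NF-κB matches at -187, -128 and -127, of which the last 2 overlap on opposite strands. In Cxcl11 they are a gamma-activated site at -250 and an NF-κB match at -74, and in Ccl7 an NF-κB match on the minus strand at -59. Positions are those of a match's first base relative to the gene start. After the start, Ccl7 had a gamma-activated site at 32 and Cxcl9 one at 33. Before it, Cxcl12 had a GCGTG on the minus strand at -69, and Cxcl9 had no match to any of the 5 motifs. Cxcl9, whose bases are not shown, had the same 3 highest rats as Cxcl10 and Cxcl11. Among all 33469 promoter windows of the same length, an NF-κB match was present in 7.51%, the interferon-stimulated core in 3.92%, the gamma-activated site in 8.87%, GCGTG in 29.7% and the estrogen response element in 0.0269%. These matches describe the letters only.

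Values are signal intensities on a linear scale, and differences between groups are log2 differences of intensity + 16 with their standard error (SE). Since probe sets differ in how brightly they report, levels were compared between rats and not between genes. To pass, a gene needed at least a 1.5-fold difference and, in limma, a p under 0.05 after Benjamini-Hochberg adjustment over all 23371 tested probe sets. With 3 rats a group, an exact two-sided permutation test of a single gene cannot go below p = 0.1.

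Some rats stood apart on genes outside the chemokines. Cyp1b1, an AHR target that encodes a cytochrome P450, was at 553, 101 and 588 in the 3-MC rats 1 to 3 and at 154, 560 and 407 in the E2 + 3-MC rats, against 127 to 211 with vehicle. The AHR target Nqo1, a quinone reductase, was at 234, 72.8 and 361 with 3-MC and at 87.1, 346 and 215 with E2 + 3-MC, against 62.3 to 199.8 with vehicle. Neither gene was above the vehicle range in the libraries labelled 3-MC rat 2 and E2 + 3-MC rat 1. In the E2 rats Cyp1b1 was at 97.7, 88.3 and 107 and Nqo1 at 64.8, 65.1 and 63.1. E2 + 3-MC rat 1 was thus above every E2 rat for both genes. Cyp1a1, the usual AHR marker, was below the filter on low values. The level of 5 skeletal muscle genes (the median of their log2 values relative to the vehicle mean) ran from -4.01 in vehicle rat 3 to 2.55 in vehicle rat 2. Epithelial Epcam (637 to 1373) and the adipocyte gene Adipoq (2765 to 4347) were high on every array.

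The main pattern was in the E2-treated rats, in which all 10 chemokine genes had their lowest group mean, against 31.9% of all tested probe sets. The genes were chosen with earlier results of these data known, and several were high in the same rats. They are therefore not 10 separate results. For Ccl4 the order rested on vehicle rat 3, without which its log2 difference of E2 from vehicle was 0.02. When 3-MC was given with E2, every one of the 10 genes was higher in all 3 rats than in any E2 rat. Ccl11 was the gene that passed with E2, and it stood apart from the rest because it stayed below vehicle with E2 + 3-MC. Most of the other genes varied widely within the 3-MC and E2 + 3-MC groups and some within the vehicle group, while Cxcl12 varied little in each.

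Ccl2, the monocyte attractant MCP-1, was at 631, 317 and 2747 in the vehicle rats 1 to 3. With E2 it was at 390.0, 266 and 312, with 3-MC at 2886, 475 and 3445, and with E2 + 3-MC at 674, 2466 and 3021. The values formed a low and a high range, with 5 rats at 2466 or more (vehicle rat 3, 3-MC rats 1 and 3, and E2 + 3-MC rats 2 and 3) and the other 7 at 674 or less. All 3 E2 rats were in the low range. The means were 1232 ± 1322 with vehicle, 322 ± 62.8 with E2, 2269 ± 1578 with 3-MC and 2054 ± 1227 with E2 + 3-MC (SD, n = 3 rats each).

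Ccl7 (MCP-3), its neighbour on chromosome 10, was at 261, 109 and 1147 with vehicle and at 129.6, 68.0 and 88.2 with E2. With 3-MC it was at 1516, 174 and 1445, and with E2 + 3-MC at 245, 1072 and 1559.7. The same 5 rats were the highest for Ccl7 as for Ccl2, 4.11-fold or more above the next rat, where the gap was 3.66-fold for Ccl2. Over the 12 arrays the log2 values of Ccl2 and Ccl7 had a Pearson correlation of 0.997, a description of arrays that share treatments and cell content.

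Neither gene passed with E2. The log2 difference from vehicle was -1.33 (SE 0.80, adjusted p = 0.585 in limma) for Ccl2 and -1.66 (SE 0.88, adjusted p = 0.515 in limma) for Ccl7. Vehicle rat 3 carried much of it, since without that rat the differences were -0.47 and -0.78. The E2 and vehicle groups overlapped for both genes. E2 + 3-MC against E2 gave 2.37 for Ccl2 (95% interval 0.66 to 4.09, adjusted p = 0.466 in limma) and 2.82 for Ccl7 (0.93 to 4.71, adjusted p = 0.436 in limma), which are 5.18-fold and 7.06-fold. For both genes all 3 E2 + 3-MC rats were above the 3 E2 rats.

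Ccl11 (eotaxin) was at 319, 210.2 and 285 with vehicle and at 120.5, 113 and 121 with E2. The E2 rats were all below the vehicle rats and lay close together, with a mean of 118 ± 4.44 against 272 ± 55.7 (SD, n = 3 each). The difference was 2.12-fold, or -1.08 on the log2 scale (SE 0.24, 95% interval -1.59 to -0.57), with an adjusted p of 0.0360 in limma. The call did not hold without E2 rat 1, 2 or 3 or without vehicle rat 1 or 3, where the adjusted p was between 0.0842 and 0.160. Leaving out vehicle rat 2 kept it, at 0.0346.

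With 3-MC alone Ccl11 was at 341, 242 and 556 (379.8 ± 160.5), a difference from vehicle of 0.40 that did not pass. With E2 + 3-MC it was at 195, 168 and 145 (169 ± 25.0), below every vehicle rat and every 3-MC rat but above every E2 rat. Against vehicle the difference was -0.62 (adjusted p = 0.449 in limma), against 3-MC -1.03 (SE 0.24, adjusted p = 0.238 in limma) and against E2 0.46 (95% interval -0.05 to 0.97, adjusted p = 0.602 in limma). Without 3-MC rat 2, whose Cyp1b1 was not above the vehicle range, Ccl11 passed in the comparison of E2 + 3-MC with 3-MC. The interaction of E2 and 3-MC was 0.06 for Ccl11 (95% interval -0.66 to 0.78).

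Eosinophil genes were at low signals. Epx, which encodes eosinophil peroxidase, was at 38.8, 48.8 and 39.4 with vehicle and at 40.1, 35.1 and 30.4 with E2, a log2 difference of -0.19 (adjusted p = 0.667 in limma). Prg2, which encodes the eosinophil major basic protein, and Ccr3, the receptor of Ccl11, were below the filter on low values, with Ccr3 between 8.94 and 26.9 over the 12 arrays. Fibroblasts are a known source of Ccl11. Of 9 fibroblast genes 0 passed with E2, while 4 were lower at an unadjusted p under 0.05, against 4.89% of all probe sets. The level of the fibroblast list was -0.66, -0.46 and -0.20 in the E2 rats, -0.42, -0.32 and -0.11 in the E2 + 3-MC rats, -0.09 to 0.28 with vehicle and -0.06 to 0.24 with 3-MC. Like Ccl11, the fibroblast level was thus lower in each of the 6 rats given E2 than in each of the 6 without it, and its part in the Ccl11 result was not tested.

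**Figure D1:**
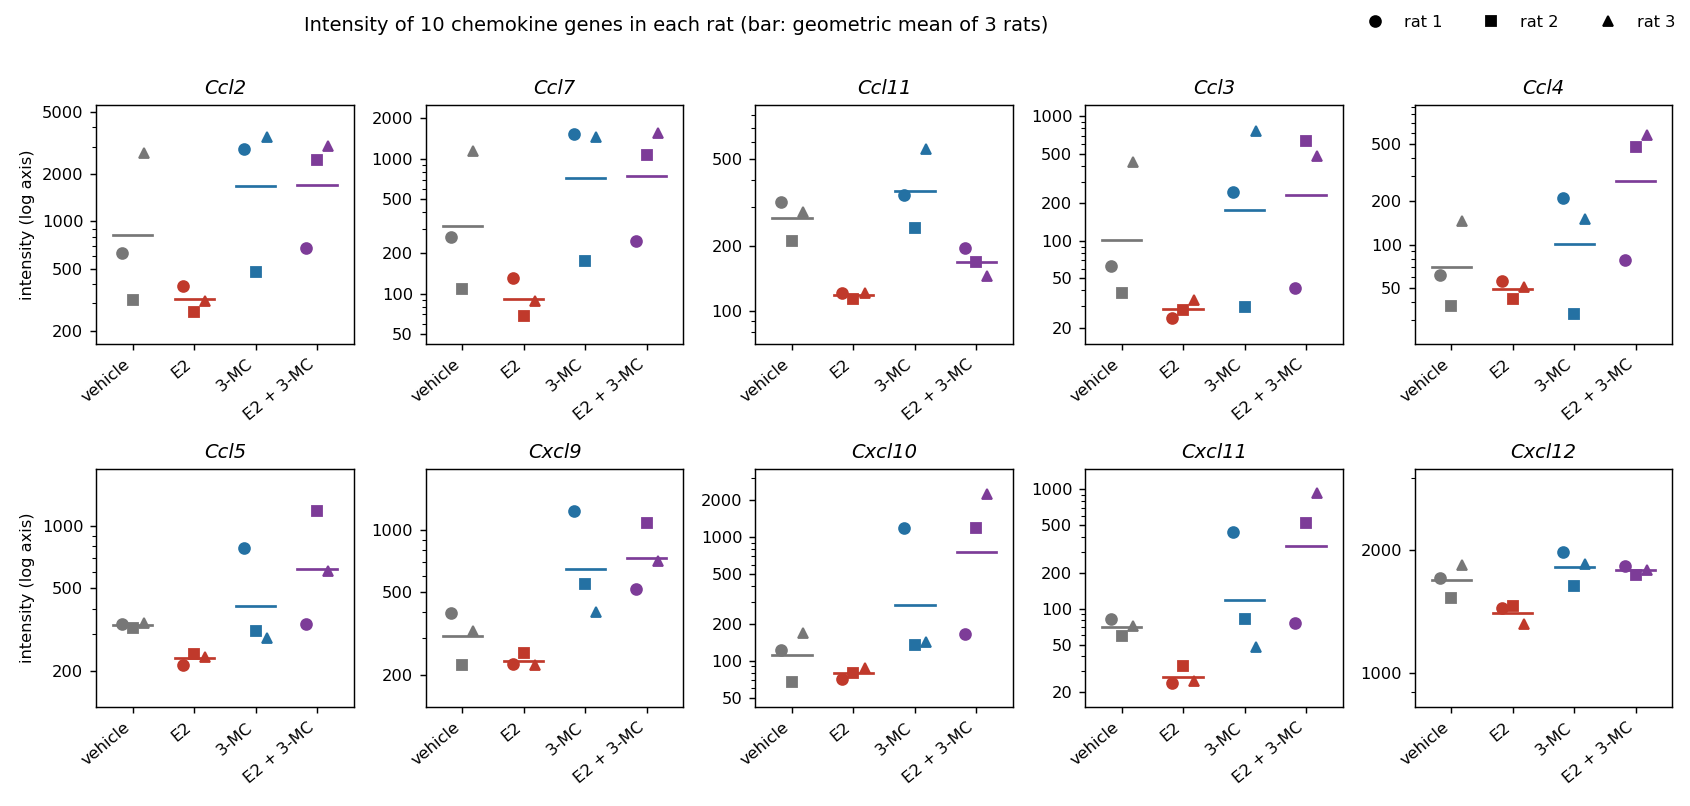
Signal intensity (log axis) of the 10 chemokine genes in each of the 12 rats, by group, with a marker shape for the rat number and a bar at the geometric mean of 3 rats. The E2 rats are among the 5 highest arrays in no panel, while Ccl2, Ccl7, Ccl3 and Ccl4 are also high in vehicle rat 3.

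Ccl3 (MIP-1α) was at 62.6, 38.4 and 433 with vehicle and at 23.9, 28.0 and 33.8 with E2. With 3-MC it was at 247, 29.4 and 768, and with E2 + 3-MC at 42.3, 635 and 484. Its 5 highest rats were those of Ccl2 and Ccl7. All 3 E2 rats were below the 3 vehicle rats, but the difference of -1.48 (SE 1.03, adjusted p = 0.664 in limma) did not pass. E2 + 3-MC against E2 gave 2.59 (95% interval 0.37 to 4.81, adjusted p = 0.524 in limma), with all 3 E2 values under the 35.5 at which the filter on mean signal was set.

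Ccl4 (MIP-1β), whose gene is next to Ccl3, was at 62.2, 37.7 and 147 with vehicle and at 56.6, 42.3 and 51.3 with E2. With 3-MC it was at 209.5, 33.1 and 151, and with E2 + 3-MC at 78.2, 476 and 579.6. Vehicle and E2 overlapped, and without vehicle rat 3 the difference turned from -0.42 to 0.02. E2 + 3-MC rats 2 and 3 were above every other rat. The difference of E2 + 3-MC from E2 was 2.20, or 4.59-fold (adjusted p = 0.424 in limma).

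Ccl5 (RANTES), which T cells and NK cells make, was at 335, 321 and 342 with vehicle and at 213, 242 and 234 with E2. The 3 E2 rats were below the 3 vehicle rats, at 229.8 ± 14.96 against 333 ± 10.9 (SD, n = 3 each), while the difference of -0.50 (SE 0.38, adjusted p = 0.700 in limma) did not pass. The SE comes from the spread of all 4 groups, and Ccl5 varied much more with 3-MC (782, 312 and 289) and with E2 + 3-MC (338, 1183 and 608). E2 + 3-MC against E2 gave 1.39, or 2.62-fold (adjusted p = 0.399 in limma).

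Cxcl9 (MIG) was at 399, 222 and 326 with vehicle, 225, 255 and 222 with E2, 1243, 549 and 401 with 3-MC, and 522, 1082 and 710.0 with E2 + 3-MC. All 3 rats given 3-MC alone and all 3 given E2 + 3-MC were above every vehicle rat. The difference of 3-MC from vehicle was 1.04 (SE 0.35, unadjusted p = 0.00994, adjusted p = 0.920 in limma), and that of E2 + 3-MC from vehicle was 1.22 (adjusted p = 0.324 in limma). Neither passed over all probe sets.

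Cxcl10 (IP-10) was at 122, 67.2 and 168 with vehicle and at 71.6, 79.3 and 87.3 with E2. With 3-MC it was at 1182, 134 and 141, and with E2 + 3-MC at 166, 1182 and 2238. The 3 rats 3-MC 1, E2 + 3-MC 2 and E2 + 3-MC 3 were 7.04-fold or more above the next rat, which was vehicle rat 3. The E2 + 3-MC group differed from E2 by 3.05, or 8.29-fold (SE 0.83, 95% interval 1.26 to 4.84, adjusted p = 0.397 in limma).

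Cxcl11 (I-TAC) was at 82.4, 59.1 and 71.4 with vehicle and at 24.0, 33.3 and 24.7 with E2. With 3-MC it was at 435, 81.3 and 47.5, and with E2 + 3-MC at 76.0, 523 and 924. The E2 rats were all below the vehicle rats, with a difference of -1.003 (SE 0.73, adjusted p = 0.687 in limma). The same 3 rats as for Cxcl10 were the highest, 5.27-fold or more above the next. E2 + 3-MC against E2 gave 3.06, or 8.34-fold (SE 0.73, 95% interval 1.48 to 4.64, adjusted p = 0.366 in limma). All 3 E2 values were under 35.5, the intensity at which the filter on mean signal was set, and the difference was 3.58 with 1 added to the intensity and 2.70 with 32.

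Cxcl12 (SDF-1) varied least in its log2 values. It was at 1705, 1525 and 1844 with vehicle, 1444, 1458 and 1321 with E2, 1975, 1636 and 1852 with 3-MC, and 1834, 1734 and 1793 with E2 + 3-MC. The E2 rats were below all 9 others, by 0.26 against vehicle on the log2 scale and by 0.34, or 1.27-fold, against E2 + 3-MC (unadjusted p = 0.0138, adjusted p = 0.480 in limma). Both differences were under the 1.5-fold threshold.

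Counted over the 10 genes, 1 passed as lower with E2 than with vehicle (Ccl11) and 0 as higher, where 0.287% of all probe sets passed as lower and 1.30% as higher. The E2 rats lay wholly below the vehicle rats for 5 of the 10 genes (Ccl11, Ccl3, Ccl5, Cxcl11 and Cxcl12), against 8.05% of all probe sets. The median log2 difference of the 10 genes was -0.75, against 0.02 over all probe sets tested. Leaving out a rat cannot lower a count of genes without overlap, here or in the comparisons that follow. Without vehicle rat 2, the lowest of the vehicle rats for all 10 genes, the count was 10 of 10 (17.3% of all probe sets without this rat). Without E2 rat 1 it was 7 (15.6%), and without vehicle rat 1 or 3 or E2 rat 2 or 3 it stayed at 5 (9.53% to 11.9%).

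Of the 10 genes, 0 passed with 3-MC alone against vehicle, as did 0% of all probe sets in limma. At an unadjusted p under 0.05, Cxcl9 alone of the 10 was higher, against 3.06% of all probe sets. The median difference of the 10 genes was 0.73, against 0.06 over all. Without 3-MC rat 2 the 3-MC rats lay above the vehicle rats for 6 genes (19.3% of all probe sets without it), where with it they did so for 1 (4.71%). Without any other 1 of the 6 rats they did so for 1 or 2 genes (6.05% to 12.8%). Without 3-MC rat 2 Ccl2 differed by 1.91 and Ccl7 by 2.13, and without vehicle rat 3 by 1.87 and 2.02. The adjusted p was 0.490 to 0.576 in limma. Leaving out vehicle rat 2 lowered these differences to 0.35 and 0.41, 3-MC rat 3 to 0.50 and 0.66, and 3-MC rat 1 to 0.63 and 0.62. Same-numbered vehicle and 3-MC rats deviated together, and 3-MC minus vehicle was above 0 in all 3 number pairs for 5 genes (Ccl2, Ccl7, Ccl11, Cxcl9 and Cxcl12), against 23.5% of all probe sets. For Ccl2 these pair differences were 2.16, 0.56 and 0.32 on the log2 scale. With the number as a block in these 6 arrays, 5 of the 10 were higher at an unadjusted p under 0.05, against 7.11% of all probe sets. These were Ccl2, Ccl7, Ccl3, Cxcl9 and Cxcl10, of which Ccl3 (-0.26) and Cxcl10 (-0.23) each had 1 pair below 0. Ccl11 and Cxcl12 were not among them. The smallest adjusted p was 0.522 in limma. The labels state no link between same-numbered rats. The block was chosen after seeing these data, so the paired values are a description only.

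With E2 + 3-MC against vehicle 0 of the 10 genes passed, where 0.154% of all probe sets passed as higher and 0.00856% as lower. At an unadjusted p under 0.05, 5 were higher (Ccl4, Ccl5, Cxcl9, Cxcl10 and Cxcl11, against 6.99% of all probe sets) and Ccl11 was lower (against 2.73%). Cxcl10 differed by 2.62 and Cxcl11 by 2.06. The Cyp1b1 value of E2 + 3-MC rat 1 was within the vehicle range but above every E2 rat. Without this rat the differences were 3.68 and 3.04, with adjusted p = 0.0883 and 0.0940 in limma. Without E2 + 3-MC rat 3 they were 1.86 and 1.36, with adjusted p = 0.629 and 0.680 in limma. The rats did not overlap, with E2 + 3-MC above vehicle, for Cxcl9 alone (10.5% of all probe sets) and, with E2 + 3-MC below, for Ccl11 (3.68%). They lay above vehicle for 6 genes without E2 + 3-MC rat 1 (15.4% of all probe sets without it) or without vehicle rat 3 (21.1%). Without vehicle rat 1 or 2 or E2 + 3-MC rat 2 or 3 the count was 1 or 2 (12.6% to 21.7%).

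E2 + 3-MC against E2 gave the widest contrast. All 10 genes were higher in each E2 + 3-MC rat than in each E2 rat, against 12.01% of all probe sets, and 9 (all but Ccl11) had an unadjusted p under 0.05, against 5.99%. After adjustment 0 of the 10 passed, nor did any of the 23371 probe sets in limma with the 4 groups in 1 model (0%). With limma on these 2 groups alone, 7 of the 10 passed as higher (Ccl2, Ccl7, Ccl4, Ccl5, Cxcl9, Cxcl10 and Cxcl11, with adjusted p of 0.00652 to 0.0445). Of all probe sets, 1.54% passed in this fit, 269 as higher and 90 as lower. Why the calls differ between these fits was not tested. Since leaving out a rat cannot create overlap, the count of genes without overlap had to stay at 10 without any 1 of the 6 rats. Of all probe sets, 13.8% to 21.5% then lay without overlap in this direction. The count was 9 when quantile normalization was applied again.

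Leaving out E2 + 3-MC rat 1 widened most of these differences, to 3.04 for Ccl2, 3.68 for Ccl3, 4.11 for Cxcl10 and 4.04 for Cxcl11, with adjusted p between 0.0712 and 0.235 for these genes in limma. Leaving out E2 + 3-MC rat 3 lowered Cxcl10 to 2.29 and Cxcl11 to 2.37, with adjusted p = 0.776 for both in limma, and leaving out E2 + 3-MC rat 2 lowered Ccl3 to 1.94 (adjusted p = 0.794 in limma). For 8 of the 10 genes the difference with all rats was at least 1.5-fold, as for 2.49% of all probe sets. The median of the 10 genes was 2.29, against 0.05 over all. E2 + 3-MC against 3-MC alone had a median of 0.26, and 0 of the 10 genes passed, where 0.103% of all probe sets passed as higher and 0.00856% as lower. Ccl11 was the only gene of the 10 whose rats did not overlap, below 3-MC, as for 3.48% of all probe sets. The comparisons share control samples, E2 and vehicle among them, so their values are not independent.

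The interaction of E2 and 3-MC, which asks whether the 3-MC difference changed in the presence of E2, passed for 0 of the 10 genes and for 0% of all probe sets. Cxcl11 had the smallest p of the 10, with an interaction of 2.36 on the log2 scale (SE 1.04, unadjusted p = 0.0403, adjusted p = 0.982 in limma). It alone was under an unadjusted p of 0.05, as were 1.59% of all probe sets in this direction. A difference between the 3-MC effect with and without E2 was thus not shown for any of the 10.

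**Figure D2:**
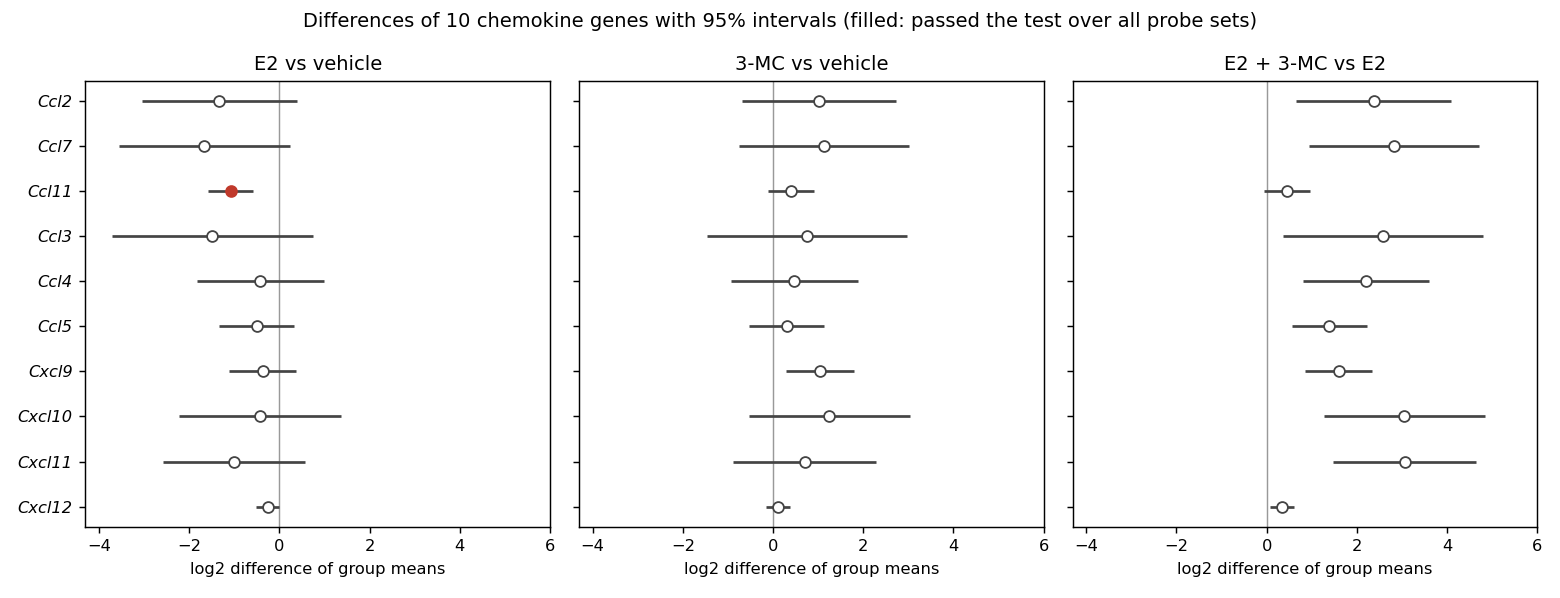
Log2 difference of group means with 95% interval for the 10 chemokine genes in 3 comparisons, where a filled point marks a gene that passed over all 23371 probe sets. Ccl11 with E2 is the only filled point, and the intervals of E2 + 3-MC against E2 lie above 0 for every gene but Ccl11.

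The rats varied more in these genes than in most. The median SD of the 10 genes' log2 values was 0.49 with vehicle, 0.14 with E2, 1.33 with 3-MC and 1.26 with E2 + 3-MC, while over all tested probe sets it was 0.18, 0.14, 0.20 and 0.16. The number of the 10 genes above the 95th percentile of SD was 5 with vehicle, 1 with E2, 9 with 3-MC and 8 with E2 + 3-MC. The E2 rats were thus about as uniform as for other genes, apart from Ccl7 with an SD of 0.40. For 0 of the 10 genes was any E2 rat among the 5 highest arrays, while 3-MC rat 1 was among them for all 10 and E2 + 3-MC rat 3 for 9.

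Among the rats there were 2 patterns. Ccl2, Ccl7, Ccl3 and Ccl4 shared their 5 highest rats, vehicle 3, 3-MC 1, 3-MC 3, E2 + 3-MC 2 and E2 + 3-MC 3. Ccl4, Ccl5, Cxcl9, Cxcl10 and Cxcl11 shared their 3 highest rats, 3-MC 1, E2 + 3-MC 2 and E2 + 3-MC 3. Vehicle rat 3 and 3-MC rat 3 were therefore high in the CCR2 ligands and not in the CXCR3 ligands. Their level for Ccl2 and Ccl7 was 1.74 and 2.07, and for Cxcl9, Cxcl10 and Cxcl11 it was 0.08 and 0.29. In 3-MC rat 1 and E2 + 3-MC rats 2 and 3, both levels were high, at 1.61 to 2.03 for the CCR2 ligands and 2.38 to 3.44 for the CXCR3 ligands.

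**Figure D3:**
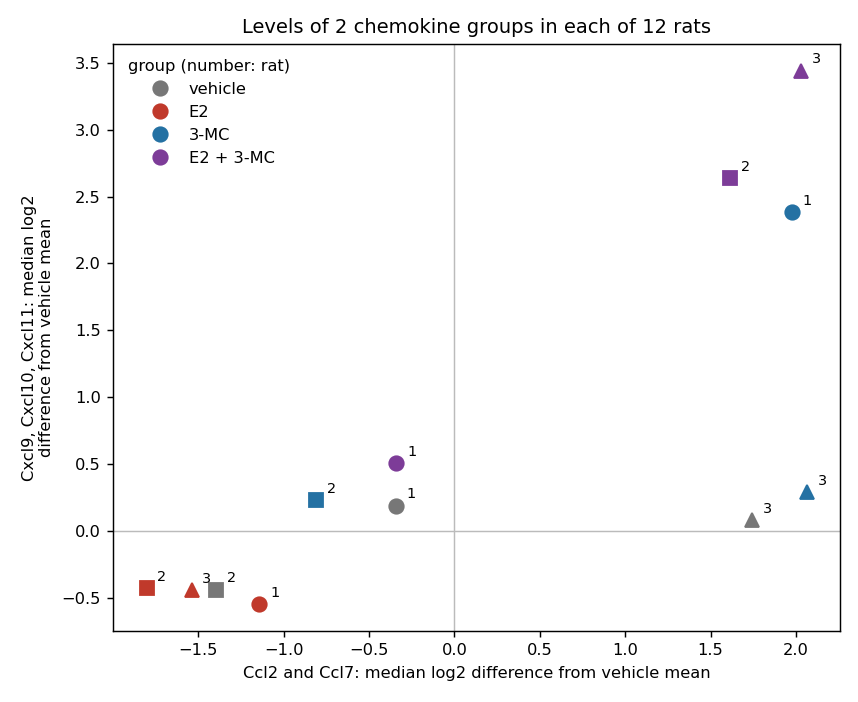
Level of the CXCR3 ligands (Cxcl9, Cxcl10, Cxcl11) against that of the CCR2 ligands (Ccl2, Ccl7) in each of the 12 rats, given as the median of the log2 values relative to the vehicle mean, with colour for group and number for rat. Vehicle rat 3 and 3-MC rat 3 are high on the horizontal axis only, 3 rats given 3-MC are high on both axes, and the E2 rats are low on both.

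The genes most like each chemokine over the 12 arrays differed between these patterns. Among 13139 probe sets of 1 symbol, the closest to Ccl2 after Ccl7 were Lilrb4 (r = 0.984), an inhibitory receptor of myeloid cells, and Ptpro (0.982). Ccl7 was nearest to Ccl2, Upp1 (0.985) and Tmem106a (0.982), and Ccl3 to Nqo1 (0.977), Timp1 (0.976) and Napsa (0.972). Ccl4 was nearest to Nos2 (0.963), the inducible nitric oxide synthase, Ass1 (0.962) and C3h15orf48 (0.955). Ccl5 was nearest to the NK cell receptor genes Klrb1a (0.964) and Klrk1 (0.963) and to Il2rb (0.945), and Cxcl9 to Itgad (0.952), Klrb1a (0.940) and Il18bp (0.940). Cxcl10 was nearest to the interferon-induced Gbp2 (0.982) and Zbp1 (0.977) and to Cxcl11 (0.975), and Cxcl11 to Cxcl10, Zbp1 (0.971) and Gbp2 (0.958). Ccl11 was nearest to Il1r2 (0.949), Rassf2 (0.921) and Camkk1 (0.915), and Cxcl12 to Kcne5 (0.931), Or1r1 (0.919) and Apoa1 (0.907). These are Pearson correlations of log2 values across arrays that share treatment and cell content, given as a description.

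The counts for gene lists that follow can be read against all probe sets tested. At an unadjusted p under 0.05, 6.82% of these were higher and 4.89% lower with E2 than vehicle, and 5.99% were higher and 2.77% lower with E2 + 3-MC than E2. Of 6 chemokine receptor genes tested, 0 passed with E2 in limma, and 1 was lower at an unadjusted p under 0.05. This was Ackr3, the scavenging receptor of Cxcl12 and Cxcl11, at 1761, 1896 and 1621 with vehicle and 1068, 1084 and 1224 with E2, without overlap (-0.64, SE 0.15, adjusted p = 0.0590 in limma). It was at 1632, 1973 and 1803 with 3-MC and at 1050, 1265 and 1607 with E2 + 3-MC. Ccr2, the receptor of Ccl2 and Ccl7, was at 278, 85.5 and 770.0 with vehicle, 159, 176 and 255 with E2, 725, 234 and 898 with 3-MC, and 230.1, 632 and 419 with E2 + 3-MC. Its 5 highest rats by value were again vehicle 3, 3-MC 1 and 3, and E2 + 3-MC 2 and 3. Ccr1 differed by -0.68 with E2 and by 0.83 with E2 + 3-MC against E2, Cxcr4 by -0.30 and 0.46, and Cxcr3 by -0.10 and 0.21. Against E2, 0 of the 6 receptors passed with E2 + 3-MC, and 0 had an unadjusted p under 0.05.

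Of 25 other chemokine genes 0 passed in limma with E2 or with E2 + 3-MC against E2. At an unadjusted p under 0.05, 3 were higher and 1 lower with E2, and 7 were higher and 0 lower with E2 + 3-MC against E2. With E2, Cx3cl1, the membrane-bound fractalkine, was at 749, 926 and 839 against 324, 593 and 482 with vehicle (0.86, adjusted p = 0.0501 in limma), opposite in direction to the 10 genes. Cxcl13, the B cell attractant, was at 542, 1009.8 and 848 with E2 against 1638, 1449 and 1821 with vehicle (-1.06, adjusted p = 0.112 in limma). Xcl1, the attractant of cross-presenting dendritic cells, was at 127, 188 and 225 with E2 + 3-MC against 65.0 to 72.8 with E2 (1.17, SE 0.24, unadjusted p = 3.09e-04, adjusted p = 0.284 in limma). Ccl12, a further monocyte attractant, was at 29.2, 303 and 528 with E2 + 3-MC and at 9.51 to 21.6 with E2 (2.68, adjusted p = 0.496 in limma). The median difference of the 25 genes from E2 was 0.18, against 2.29 for the 10, but the pattern was not limited to the 10. Ccl9, Ccl12, Cxcl2, Cxcl3 and Pf4 of the 25 had the same 5 highest rats as Ccl2, while the rest did not. Pf4 was at 696, 987 and 1330 with E2 + 3-MC against 293 to 338 with E2. Cxcl2 was at 34.3, 311 and 232 against 20.6 to 44.6, with overlap.

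Of 20 genes of the interferon-γ axis, 0 passed with E2 + 3-MC against E2 in limma, while 14 were higher and 0 lower at an unadjusted p under 0.05, with a median of 0.75. Ifng itself was at 88.0, 97.8 and 93.2 with E2 + 3-MC against 57.3, 36.3 and 31.96 with E2, so that all 3 rats were higher, E2 + 3-MC rat 1 included (0.94, SE 0.17, unadjusted p = 6.97e-05, adjusted p = 0.260 in limma). Gbp2, a guanylate-binding protein, differed by 1.55, Irf8 by 1.25, the MHC class II gene RT1-Db1 by 0.82, Irf1 by 0.66 and the feedback inhibitor Socs1 by 0.62. With E2 against vehicle, 1 of the 20 passed as higher, Il18, which encodes an inducer of interferon-γ, at 378, 378 and 349 against 114, 88.8 and 161 (1.52, adjusted p = 0.0282 in limma).

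Of 13 genes of the type I interferon response, 0 passed in either comparison in limma, and 9 were higher and 0 lower with E2 + 3-MC against E2 at an unadjusted p under 0.05 (median 1.03). Mx1, an antiviral GTPase, was at 829, 60.6 and 60.2 with 3-MC and at 129, 608 and 691 with E2 + 3-MC, and at 64.2, 30.9 and 155 with vehicle. It was thus high in the same 3 rats as Cxcl10, while Ifit1 of this list was at 64.7, 47.9 and 60.3 in these rats and at 38.3 to 65.9 in the other 9. Ifit3 differed by 2.38, Isg15 by 1.82 and Irf7 by 1.31 from E2. The level of this list was 1.66 in 3-MC rat 1 and 0.96 and 1.12 in E2 + 3-MC rats 2 and 3, and at most 0.47 in the other 9 rats.

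Of 17 genes of NF-κB-linked inflammation, 0 passed with E2 or with E2 + 3-MC against E2 in limma. At an unadjusted p under 0.05, 1 was lower with E2 (Nfkbia, the inhibitor IκBα, by -0.41), and 7 were higher with E2 + 3-MC against E2. Il6 was at 97.9, 20.9 and 97.8 with 3-MC and at 17.4, 111 and 139 with E2 + 3-MC, against 18.8 to 24.8 with vehicle and 15.6 to 20.03 with E2. It was high in the 4 rats with 3-MC that were high in Ccl2, but not in vehicle rat 3. Ptgs2 differed from E2 by 0.96, Tnf by 0.77 and Tlr4 by 0.49.

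Of 13 macrophage genes, 0 passed with E2 + 3-MC against E2 in limma, and 10 were higher and 0 lower at an unadjusted p under 0.05 (median 0.77). Aif1 differed by 1.43, Lyz2 by 1.42 and the complement genes C1qa, C1qb and C1qc by 0.77, 0.62 and 0.57. The level of the macrophage list was highest in the 5 rats that were highest in Ccl2, at 0.62 to 0.86 against at most 0.12 in the others. With E2 against vehicle the median of the list was -0.38, and 1 gene passed as higher, the lipopolysaccharide receptor Cd14 (0.84, adjusted p = 0.0370 in limma). Cd14 thus went the opposite way to the list's median.

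Of 14 T and NK cell genes, 0 passed with E2 + 3-MC against E2 in limma, and 12 were higher and 0 lower at an unadjusted p under 0.05 (median 0.86). Nkg7, a cytotoxic granule gene, was at 161, 26.5 and 49.1 with 3-MC and at 56.9, 280 and 205 with E2 + 3-MC, against 26.0 to 34.9 with E2. Cd8a differed by 1.83, Cd3e by 0.87 and Prf1 by 0.73. The level of the list was 0.92 in 3-MC rat 1 and 1.16 and 0.77 in E2 + 3-MC rats 2 and 3, and at most 0.27 in the others. Of 10 granulocyte and mast cell genes, 1 passed as lower with E2, the myeloperoxidase gene Mpo (-0.77, adjusted p = 0.0289 in limma). In this list S100a8, S100a9 and Csf3r had the same 5 highest rats as Ccl2. S100a8 was at 142 to 1193 in these rats and at most 98.1 in the others. Mpo and the other tested genes of the list did not share these 5 rats. Of 5 B cell and lymph node genes 0 passed while 2 were higher with E2 + 3-MC against E2 at an unadjusted p under 0.05. The part of cell content in the chemokine differences was not tested.

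Genes of other cell types also passed with E2. Of 6 luminal epithelial genes, 2 passed as higher with E2 than vehicle (Krt18 by 0.89 and Cdh1 by 0.77), and of 6 adipocyte genes, 1 passed as lower (Lpl by -0.72). Of 7 endothelial genes, 0 passed in limma but all 7 were lower at an unadjusted p under 0.05, against 4.89% of all probe sets (median -0.48). Of 5 skeletal muscle genes, 0 passed, with levels of 1.48, 2.55 and -4.01 with vehicle, -0.16, -2.69 and -0.79 with E2, 1.05, 1.70 and -3.67 with 3-MC, and -2.10, -2.10 and -3.50 with E2 + 3-MC. Vehicle rat 3 and 3-MC rat 3, high in the CCR2 ligands, were at the lowest muscle levels of the 12, while 3-MC rat 1, also high, was at 1.05. Of 4 AHR target genes tested, 0 passed, and their level was 0.49 to 1.62 in the 5 rats highest in Ccl2 and at most 0.02 in the others. Vehicle rat 3, at 0.49, is labelled as given no 3-MC. The part of muscle, luminal and AHR target levels in the chemokine values was not tested.

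**Figure D4:**
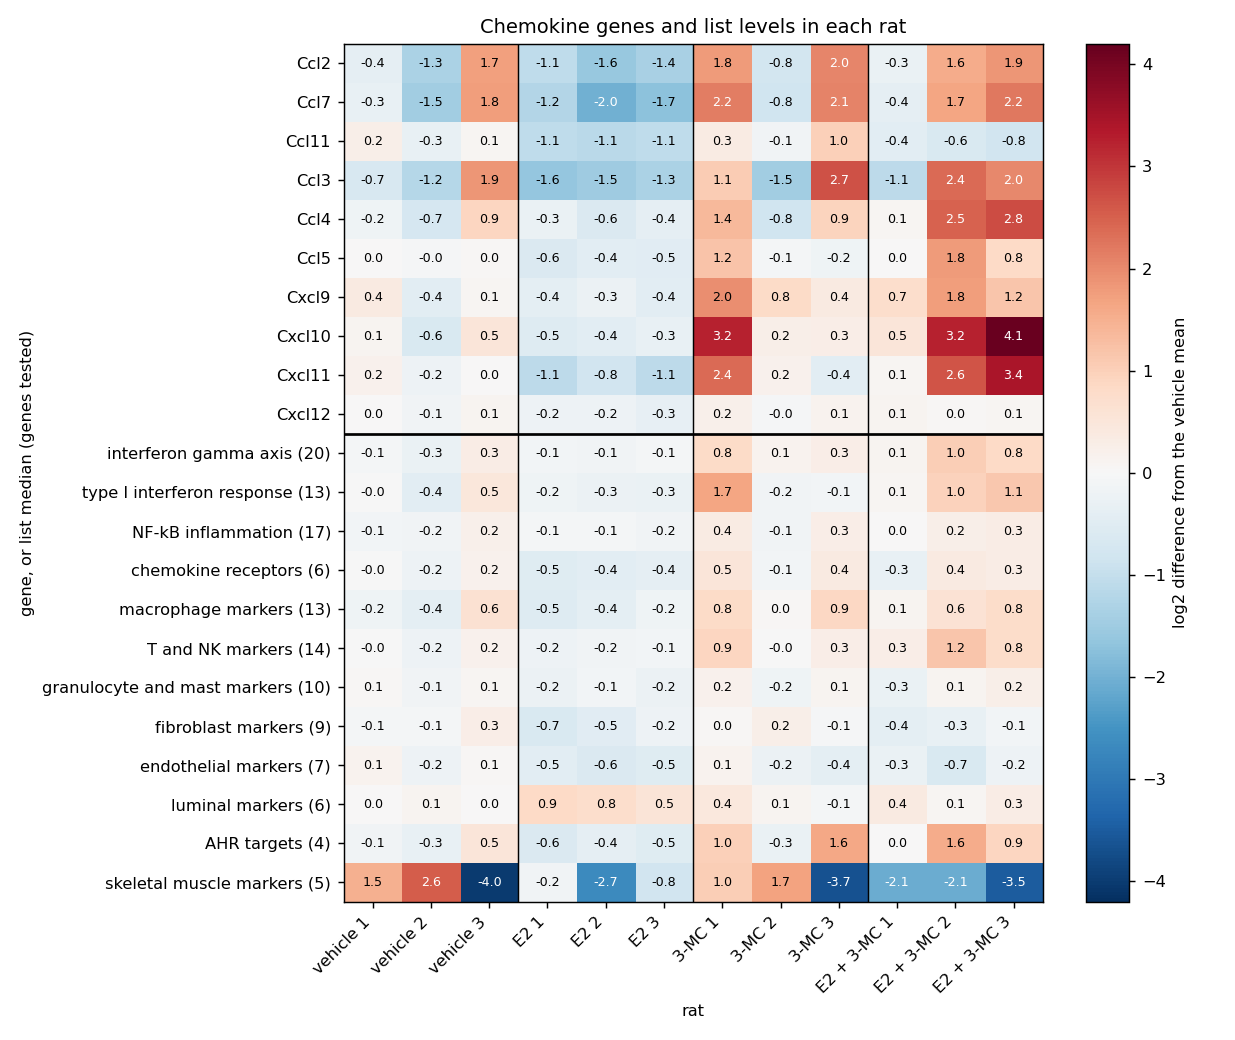
Log2 difference from the vehicle mean for each of the 10 chemokine genes (upper rows) and median over the tested genes of each list (lower rows, number of genes in brackets) in each of the 12 rats. The columns of vehicle 3, 3-MC 1, 3-MC 3 and E2 + 3-MC 2 and 3 are high for Ccl2, Ccl7 and the macrophage list, while the type I interferon, T and NK lists follow Cxcl10 in 3 of these.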

How the data were processed

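The deposited values were linear signal intensities per probe set, which the authors made from scanned Affymetrix rat gene arrays with PLIER in Expression Console. The methods also name quantile normalization and scaling to the control median. The array medians of the deposited intensities ran from 85.7 to 109.5, so they do not share 1 distribution, and they were used without further normalization. Adding 16 before the log2 understates changes of dim probe sets.

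After log2(intensity + 16), the 23371 of 29214 probe sets with a mean above the 20th percentile (an intensity of 35.5) entered a limma 3.58.1 model (R 4.3.3) of the 4 groups over 12 arrays, and p-values were two-sided. Without a single symbol, probe sets (323 with several and 13581 with none listed in the platform annotation) name no gene here. Gene positions and promoters are from RefSeq on GRCr8. Python 3.11.15 with matplotlib 3.10.9 drew the figures. The number of arrays limits the precision. On simulated data for E2 against vehicle (200 changed of 23371 probe sets), 73% of 2-fold and 93% of 4-fold changes were recovered, with 5 false calls. These rates are for the changed probe sets together and give none for the chemokine genes alone. The median SD of the chemokine genes was 0.49 with vehicle and 1.33 with 3-MC, against 0.18 and 0.20 over all tested probe sets. With E2 + 3-MC it was 1.26 against 0.16, and with E2 0.14 in both. A chemokine gene that did not pass is thus not shown to be unchanged.

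The members, lists and tests were chosen with earlier results of these data known. Named genes are the 10 members, list genes that passed or had up to the 4 smallest p in E2 against vehicle or E2 + 3-MC against E2, and the 3 genes most correlated with each member. Further list genes named beside these (Epx, Prg2, Ccr3, Nkg7, Ccl9, Ccl12, Cxcl2, Cxcl3, Pf4, S100a8, S100a9, Csf3r and others given for a role) were chosen after their values were seen. The lists cover chemokine receptors, other chemokines, NF-κB, interferon-γ, type I interferon, AHR targets and markers of 9 cell types. The rats are numbered 1 to 3 in each group, with no stated link. Deviations of same-numbered vehicle and 3-MC arrays correlated at 0.341, 0.442 and 0.564, which alone makes them pairs here, and no other 2 groups had all correlations above 0.1. Alternatives were other pseudocounts, filters and thresholds, quantile normalization, median centring, array weights, limma trend, 2-group fits, the methods' t-test, the replicate number as a block and leaving out each rat. The block in the 6 vehicle and 3-MC arrays was chosen after seeing the data.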

Additional observations from a re-analysis of the deposited data

How the results depend on the processing

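The Ccl11 difference of E2 from vehicle kept its direction under every alternative run. It lost its call by the methods' t-test (adjusted p = 0.240) and without any 1 of 5 rats. The count of the 10 genes that passed with E2 went from 1 to 2 with limma on the 2 groups only (Cxcl11 added) and to 0 by the methods' t-test, and was 0 to 1 when 1 rat was left out. For E2 + 3-MC against E2 it went from 0 to 7 with limma on the 2 groups only. For E2 + 3-MC against 3-MC it went from 0 to 1 (Ccl11) with array weights, and was 0 to 1 when 1 rat was left out. Differences near 0 changed sign. Cxcl12 with E2 + 3-MC against vehicle was -0.013 with centred arrays. Against 3-MC it was 0.036 under quantile normalization, while Ccl2 and Ccl7 were -0.014 and -0.017 with centred arrays, and Ccl2, Ccl7 and Ccl3 were -0.52, -0.52 and -0.65 with array weights. The Ccl11 interaction was -0.092 with array weights. Leaving out 1 rat at a time gave ranges across 0. With E2 against vehicle Ccl4 was -0.78 to 0.022. With 3-MC against vehicle Ccl3 was -0.19 to 1.87, Ccl5 -0.14 to 0.55 and Cxcl11 -0.14 to 1.28. With E2 + 3-MC against 3-MC Ccl2 was -0.87 to 0.69, Ccl7 -0.97 to 0.80, Ccl3 -0.77 to 1.44, Cxcl9 -0.16 to 0.64 and Cxcl12 -0.097 to 0.037. The Ccl11 interaction was -0.21 to 0.36. The replicate block changed no call of the 10 genes in any comparison, with 1 gene passing with E2 (Ccl11, adjusted p = 0.0256 in limma). The causes of these shifts were not tested. Over all probe sets, the share that passed with E2 ran from 0.0300% (7, the methods' t-test) to 2.79% (652, array weights). The mean of all probe sets of a gene was not run, as each gene had 1.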
